A study of Drosophila melanogaster with 2 samples.

Results

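Sox102F summits that lay at the starts of non-coding RNA genes, away from every protein-coding start, were taken from a chromatin immunoprecipitation map of whole Drosophila melanogaster white prepupae. A summit was kept when it lay within 1 kb of an annotated start of a gene of biotype ncRNA and over 1 kb from every annotated protein-coding start. The rule used position alone and no measured level. The optimal list to which it was applied had itself been thresholded on IDR, a measure of agreement between replicates. The rule kept 304 of the 7055 summits of the optimal list (4.31%, Wilson 95% interval over summits 3.86 to 4.81%). The 304 summits lay near 275 non-coding RNA genes, of which 250 were the nearest RNA of at least 1 summit.

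The flies were of a transgenic line that stably expresses Sox102F with GFP fused at its C terminus, and males and females were pooled as whole white prepupae. The chromatin was sheared by sonication and precipitated with an antibody to GFP, although 1 label field gives Sox102F as the antibody. The study has 1 group of 2 samples, biological replicates 4 and 1, and an untagged line or another stage was not analysed here. The labels do not say which promoter drives the fusion, and their age field reads unknown. Whole animals mix all tissues, so a weak peak in many cells and a strong peak in few cells cannot be told apart.

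SOX transcription factors use an HMG domain to enter the minor groove of DNA and bend it, and their core site holds the letters ACAAT or, on the other strand, ATTGT. Sox102F is the fly relative of the vertebrate SoxD proteins. Long non-coding RNAs are transcribed and often spliced like mRNAs but encode no known protein, and some are precursors from which microRNA hairpins are cut. For a hairpin the annotated start is where the hairpin begins in its precursor, and not where transcription of that precursor starts.

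The sequences under the 4 strongest summits and the summit ranked 20 are shown first, because they differ in whether the SOX core word is there at all. They do not show how often the word occurs, and 6 of the 20 strongest held it. Each run is 101 bases centred on the summit, on the plus strand of RefSeq's release 6 assembly, with dm6 coordinates, and capitals mark every match to ACAAT or ATTGT.
CR46035 in osa, chr3R:17704362-17704462: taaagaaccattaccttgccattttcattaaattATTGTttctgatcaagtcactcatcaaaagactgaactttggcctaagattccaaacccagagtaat
CR31044, host of mir-279 and mir-996, chr3R:29214389-29214489: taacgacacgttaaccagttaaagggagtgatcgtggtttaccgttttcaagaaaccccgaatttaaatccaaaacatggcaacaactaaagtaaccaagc
CR44619, stronger summit, chrX:12752317-12752417: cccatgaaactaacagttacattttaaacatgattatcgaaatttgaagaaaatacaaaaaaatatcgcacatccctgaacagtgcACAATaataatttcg
CR44619, second summit, chrX:12751264-12751364: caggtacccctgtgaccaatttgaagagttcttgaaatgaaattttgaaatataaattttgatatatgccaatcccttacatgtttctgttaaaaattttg
CR44331 in puc, chr3R:8114033-8114133: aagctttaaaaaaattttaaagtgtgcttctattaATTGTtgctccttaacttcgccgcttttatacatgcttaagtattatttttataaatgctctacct
The CR46035 summit held 1 match, 14 bp from the summit, while the almost equally strong CR31044 summit held none within 50 bp. Of the pair at CR44619, the stronger held 1 match and the other none, and the summit at CR44331 held 1.

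Mature microRNAs of some of the host RNAs with a summit are shown with their seed, the stretch of bases 2 to 8 that pairs with target mRNAs. Others, among them mir-8, mir-4951 and mir-14, are not shown. Capitals mark the seed, and the sequences are those of RefSeq on the release 6 assembly, for 1 arm of each hairpin.
mir-279, chr3R:29215651-29215672, plus strand: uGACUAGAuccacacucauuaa
mir-996, chr3R:29217244-29217265, plus strand: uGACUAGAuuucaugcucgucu
mir-let7, chr2L:18472044-18472064, plus strand: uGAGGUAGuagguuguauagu
mir-100, chr2L:18471445-18471466, plus strand: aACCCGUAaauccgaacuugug
mir-125, chr2L:18472343-18472364, plus strand: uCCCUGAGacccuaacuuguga
mir-10, chr3R:6809553-6809574, minus strand: aCCCUGUAgauccgaauuuguu
mir-ban, chr3L:642259-642281, plus strand: uGAGAUCAuuuugaaagcugauu
mir-9a, chr3L:19565140-19565162, plus strand: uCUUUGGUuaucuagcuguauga
mir-275, chr2L:7425853-7425875, plus strand: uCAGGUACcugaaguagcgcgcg
The seeds of mir-279 and mir-996, which are cut from the same host RNA, were identical. The other seeds shown all differed from each other and from that of mir-279.

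The 2 strongest summits carried nearly the same signal in both replicates. Signal is the authors' own value for each peak and has no stated unit, and whether the lists share a scale is not stated. The optimal signal was 1.00 times the sum of the replicate signals at the median of these summits, so it is not to be compared with a single replicate's. At CR46035 it was 1919 in the optimal list, 977.5 in replicate 4 and 954.0 in replicate 1. This long RNA runs opposite to osa, whose protein belongs to the Brahma complex that remodels nucleosomes, and the summit lay in its exon, 717 bp from its start and 13938 bp from the nearest coding start, one of osa itself. At CR31044 the signal was 1916 in the optimal list, 934.5 in replicate 4 and 981.6 in replicate 1. That summit lay 123 bp upstream of the host RNA of mir-279 and mir-996, microRNAs known for limiting the formation of carbon dioxide sensing neurons. Among all optimal summits CR46035 ranked 12 and CR31044 ranked 13, and in replicate 1 the order was turned, at ranks 12 and 11. The log2 ratio of replicate 4 to replicate 1 was 0.04 at CR46035 and −0.07 at CR31044.

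A pair of summits 1053 bp apart flanked the start of CR44619 on the X, a long RNA between CG4004 and Paics, an enzyme gene of purine synthesis. The stronger lay 500 bp into its exon, with a signal of 1474 in the optimal list, 739.9 in replicate 4 and 748.3 in replicate 1. The other lay 553 bp upstream, with 1268, 700.8 and 538.3 in the same order. Their RNA starts inside the annotated span of Vinr, another long RNA on the same strand that is known from the immune response to viruses. The summit nearest to Vinr's own start lay 546 bp inside it and was weak, with 94.9 in the optimal list, 75.3 in replicate 4 and 39.9 in replicate 1. Both CR44619 summits were far above the Vinr summit in each of the 3 lists.

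Of the 20 strongest summits, 8 lay inside a protein-coding gene. The RNA asRNA:CR44512 runs against Zw, the glucose-6-phosphate dehydrogenase gene of the pentose phosphate pathway. Its summit lay 855 bp upstream of the RNA's start and 1121 bp from a coding start of Zw. The signal there was 1247 in the optimal list, 590.5 in replicate 4 and 655.6 in replicate 1. Inside LpR2, a lipophorin receptor gene, the summit of CR46102 had 1070.3 in the optimal list, 513.6 in replicate 4 and 563.1 in replicate 1. In the same order, the summit of CR44867 in beat-Ib, of a family of neuronal cell-surface proteins, had 841.3, 479.9 and 362.7. At CR43287 in the forkhead gene CHES-1-like the signals were 725.2, 270.2 and 442.8, the widest gap between replicates among the 20 (log2 ratio −0.71). The gene for the splicing regulator Muscleblind, mbl, held CR45997 with 704.4, 391.6 and 305.0. In Raf, the MAP kinase kinase kinase gene downstream of Ras, CR34052 had 608.2, 271.3 and 327.9. In puc, the phosphatase gene that restrains JNK signalling, CR44331 had 594.6, 317.1 and 282.8.

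The other 12 of the 20 lay between coding genes. CR44676, between CG9300 and the potassium channel gene Shal, had a signal of 946.2 in the optimal list, 447.7 in replicate 4 and 480.4 in replicate 1. CR43650, the host of mir-8, a relative of the vertebrate miR-200 family, had 883.4, 440.0 and 449.2 at a summit 695 bp upstream of its start. Beside the ADAMTS protease gene AdamTS-B, CR42794 had 708.8, 321.9 and 356.3, and CR43337 had 660.7, 322.4 and 333.5. Those at CR45643, CR44363 and CR45737 had optimal signals of 629.4, 625.8 and 616.5, and the first lay 3153 bp from tara, a Trithorax-group gene, while the last had sty, which encodes the receptor tyrosine kinase inhibitor Sprouty, as a neighbour 6117 bp away. At asRNA:CR45999 the optimal signal was 607.9, and at CR45234, 9555 bp from the cell death gene hid, it was 598.1. All 20 had an entry in both replicate lists, and replicate 4 was the higher in 8 of them. Log2 ratios of replicate 4 to replicate 1 over the 20 ran from −0.71 to 0.41.

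**Figure D1:**
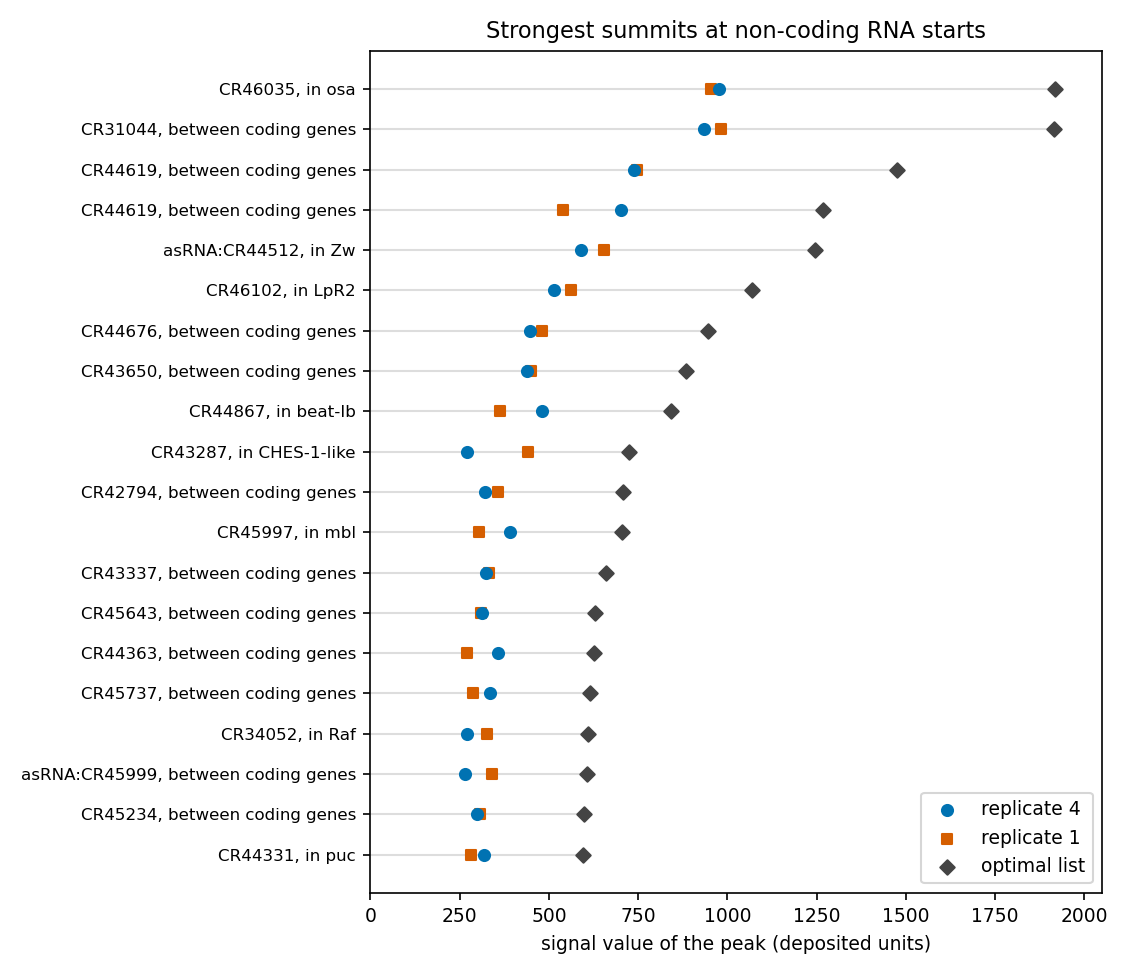
Signal of the 20 strongest summits at non-coding RNA starts, in deposited units, with each RNA and, where it lies in one, its host coding gene on the vertical axis; circles are replicate 4, squares replicate 1 and diamonds the optimal list. The optimal signals run from 594.6 to 1919, and the widest gap between replicates is at CR43287 in CHES-1-like, with 270.2 in replicate 4 and 442.8 in replicate 1.

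Over all 304 summits the optimal signal had a median of 137.2, with quartiles of 97.8 and 237.0 and a range of 76.8 to 1919. The median was 146.3 at coding starts and 128.5 at summits with neither kind of start within 1 kb. At the low end, CR34046, CR46352 and CR44903 had 77.5, 76.9 and 76.8, next to the lowest signal of the whole optimal list (76.7). Among the 100 strongest optimal summits 6 were at non-coding RNA starts, with 30 among the 500 strongest and 51 among the 1000 strongest. By kind of nearest RNA the median signal was 137.8 over 273 long RNAs, 159.5 over 15 antisense RNAs and 109.3 over 12 microRNA hairpins. The remaining summits were nearest to 3 other small RNAs and 1 stable intronic RNA, sisRNA:4 in the neural stem cell gene dpn (297.4 in the optimal list, 147.2 in replicate 4, 156.8 in replicate 1).

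Most of these summits were listed in both replicates. The optimal list was thresholded on agreement between replicates, so a high share is partly set by that choice. Within 100 bp, 283 of the 304 had an entry in both replicate lists (93.1%, Wilson interval 89.7 to 95.4%), 7 in replicate 4 alone, 14 in replicate 1 alone and none in neither. Each replicate list holds 30000 entries and reaches down into background, to signals of 11.1 in replicate 4 and 9.35 in replicate 1. Within the 7055 strongest entries of each replicate, 211 (69.4%) were in both. The corresponding shares were 89.4 and 68.4% at coding starts and 93.1 and 67.4% at summits with no start within 1 kb. Over the 283 the median log2 ratio of replicate 4 to replicate 1 was 0.00, and Spearman's correlation of the 2 signals was 0.74, a description over summits that share the same 2 libraries. The ratio passed 2-fold at 33 of the 283 (11.7%), 16 of them higher in replicate 4 and 17 in replicate 1, against 10.4% of all optimal summits with both entries.

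**Figure D2:**
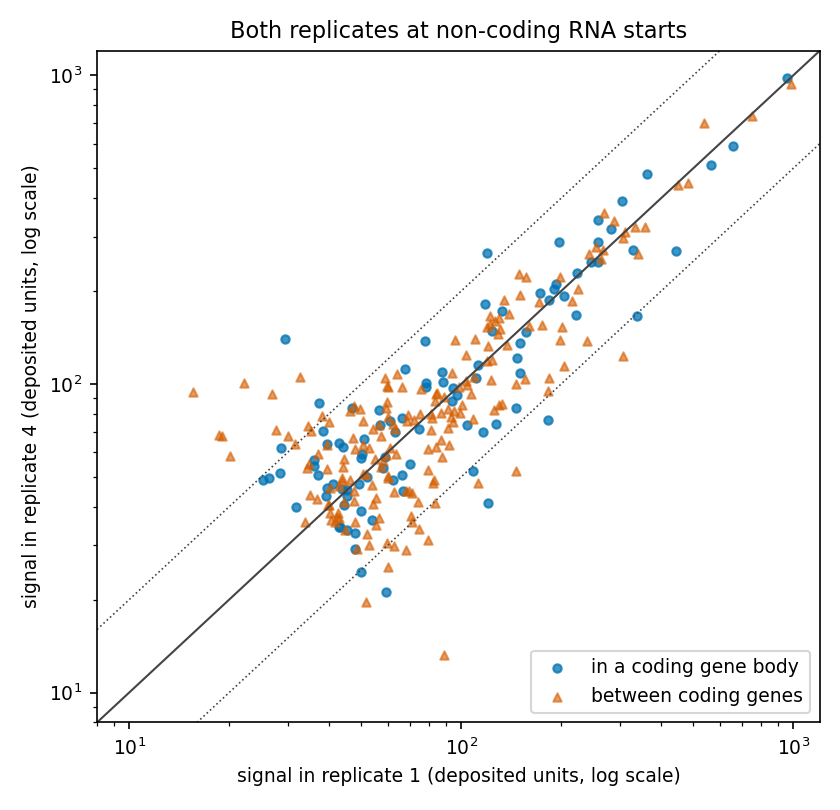
Signal in replicate 4 (vertical, log scale) against signal in replicate 1 (horizontal, log scale) for the 283 summits with an entry in both lists; circles lie in a coding gene body, triangles between coding genes, the solid line is equality and the dotted lines a 2-fold difference. Points lie along the line at high signal and spread at low signal, with let7C the lowest in replicate 4 at 13.2.

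The widest disagreements were at summits with optimal signals of 90.5 to 189.0. The highest ratios of replicate 4 to replicate 1 were at CR46006 (94.2 in replicate 4, 15.5 in replicate 1, log2 ratio 2.60), asRNA:CR43971 in the CTP synthase gene Ctps (139.9 and 29.4, 2.25) and CR45424 (100.8 and 22.1, 2.19). Each of these had another optimal summit 201, 206 or 199 bp away. The lowest were at let7C (13.2 and 88.6, −2.75), CR45940 in nkd, a Wnt feedback inhibitor gene (41.0 and 120.3, −1.55), and CR44379 (52.2 and 146.5, −1.49), whose nearest other optimal summits were 871, 2362 and 651 bp away. In all, 44 of the 304 had another optimal summit within 250 bp, at distances of 199 to 223 bp (median 203 bp), with none closer than 199 bp. A 2-fold difference between replicates was found at 7 of 37 such summits with both entries (18.9%) and at 26 of the 246 others (10.6%). Whether the close summits mark separate sites was not tested.

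Of 1949 non-coding RNA genes whose every start is over 1 kb from a coding start, 253 (13.0%) had one of these summits within 1 kb. Counting any optimal summit, 474 of all 2780 non-coding RNA genes (17.1%) had one within 1 kb, against 2829 of 13945 protein-coding genes (20.3%). By kind, a summit of the 304 lay within 1 kb of 241 of 1951 long RNAs (12.4%), 14 of 503 antisense RNAs (2.78%), 15 of 260 microRNA hairpins (5.77%), 2 of 10 stable intronic RNAs and 3 of 56 other small RNAs. Antisense RNAs often start beside a coding start, which takes them out by the rule: 209 of the 503 had no start within 1 kb of one, against 1511 of the 1951 long RNAs. The median length was 671 bases for long RNAs with a summit and 662 bases for those without.

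Sox102F summits stood closer together near non-coding RNA starts than in the rest of the genome away from coding starts. Outside coding exons there were 90.9 summits per Mb within 1 kb of these starts, against 155.8 per Mb within 1 kb of coding starts and 42.5 per Mb beyond 1 kb of either. The ratio to the last was 2.14, with 2.18 in replicate 4 and 2.23 in replicate 1. Inside coding gene bodies the densities were 86.3 and 48.9 per Mb (1.77 times), and between genes 93.3 and 33.0 per Mb (2.83 times). The decline with distance was gradual. Density was 111.8 per Mb within 250 bp of a non-coding RNA start, 75.1 between 750 and 1000 bp, 68.0 between 1000 and 1500 bp and 54.96 between 5000 and 10000 bp.

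**Figure D3:**
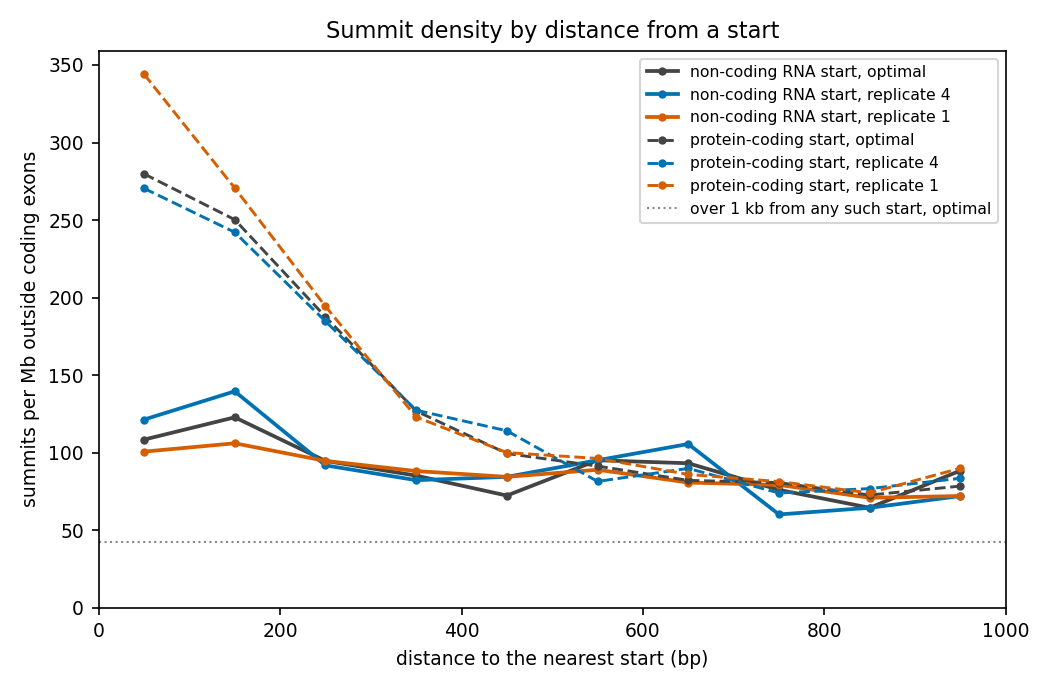
Optimal and replicate summits per Mb outside coding exons (vertical) by distance to the nearest start in steps of 100 bp (horizontal); solid lines are non-coding RNA starts with no coding start within 1 kb, dashed lines protein-coding starts, and the dotted line sequence over 1 kb from either. In the optimal list density in the first 100 bp is 108.4 per Mb at non-coding RNA starts and 279.8 per Mb at coding starts, and between 500 and 600 bp it is 95.2 and 91.4 per Mb.

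Summits lay farther from the start than at coding genes, and about as often on either side of it. The median distance to the nearest non-coding RNA start was 422.5 bp (391 bp in replicate 4, 429 bp in replicate 1), against 185 bp to the nearest coding start for summits there (191 and 165 bp). The rule bounds these distances at 1 kb, and the sequence available at each distance differed. Outside coding exons, 0.387 Mb lay within 100 bp of these RNA starts and 0.305 Mb between 900 and 1000 bp. For coding starts the values were 3.31 and 1.39 Mb. Within 100 bp lay 42 of 304 (13.8%, Wilson interval 10.4 to 18.1%), against 31.5% at coding starts. Upstream lay 152 of 304 (interval 44.4 to 55.6%; 50.5% in replicate 4 and 52.6% in replicate 1), against 67.6% at coding starts (65.9 and 68.8%). Of the antisense RNAs' summits 11 of 15 were upstream, and of those nearest to a hairpin 7 of 12. By place in the nearest RNA, 142 lay upstream of all its starts, 92 in an exon, 22 in an intron and 48 beyond the RNA's other end, which short RNAs allow within 1 kb.

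A coding gene body held 99 of the summits (32.6%), in 85 different genes, and 205 lay between genes. The share was 68.9% for summits with no start within 1 kb and 64.9% for all optimal summits. The sequence itself differed in the same way. Outside coding exons, coding gene bodies held 1.15 of the 3.34 Mb within 1 kb of these starts. Beyond 1 kb of either kind of start they held 53.1 of 88.8 Mb. The nearest RNA ran opposite to the host at 61 of the 99 and with it at 37, and 1 had hosts on both strands. The same count over all non-coding RNAs in coding genes is not given here. None lay in coding sequence and 6 lay in another exon of a coding gene. The nearest coding start was 1 to 1.5 kb away for 47, more than 5 kb away for 121, and 3979 bp away at the median, so for some the promoter of a coding gene is close although outside the limit. By arm, 69 lay on 2L, 58 on 2R, 71 on 3L, 65 on 3R, 40 on X and 1 on 4, at CR45125 in dati (90.2 in the optimal list, 45.3 in replicate 4, 45.2 in replicate 1). They made up 5.42% of the optimal summits on 2L and 3.03% of those on X, the highest and lowest shares among the 5 large arms. How much of each arm lies within reach of these RNA starts is not given here, so the arms are not compared further.

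At the limits of the rule, the farthest summits kept were at CR44547 (992 bp from its start, signal 149.3), asRNA:CR46264 (985 bp, 236.9) and CR43857 (983 bp, 137.8). Those kept with the nearest coding start were at CR45424 (1004 bp, signal 350.5), asRNA:CR46194 (1008 bp, 147.7) and asRNA:CR45999 (1023 bp, 607.9). Just outside for the distance to the RNA were summits near CR45939 (1005 bp, 94.98), CR44739 (1018 bp, 79.7) and CR43334 (1037 bp, 503.3). Just outside because a coding start lay within 1 kb were summits near CR44444 (994 bp from a start of M7BP, 90.1), CR44281 (992 bp from ptc, 152.9) and CR44985 (983 bp from Ncoa6, 227.9). In all, 242 of the 2970 coding-start summits also had a non-coding RNA start within 1 kb and were left out.

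Long RNAs that hold a microRNA hairpin had a summit more often than other long RNAs in the optimal list and in each replicate. Of 37 such host RNAs, 14 had a summit of the 304 within 1 kb of a start (37.8%, Wilson interval over RNAs 24.1 to 53.9%), against 241 of the 2417 other long and antisense RNAs (9.97%, 8.84 to 11.2%). In the strongest entries of replicate 4 the count was 13 and in replicate 1 it was 12, against 10.1 and 9.85% of the others. Hosts were longer than most long RNAs, and within lengths over 5000 bases the counts were 9 of 22 hosts and 9 of 92 others. Between 1000 and 5000 bases they were 5 of 13 and 61 of 687. Among RNAs with every start over 1 kb from a coding start, 13 of 32 hosts and 224 of 1688 others had one. With any optimal summit counted, the gap was narrower, at 15 of 37 hosts (40.5%) and 426 of 2417 others (17.6%). The hosts were chosen as a group after their values were seen, and no test was made.

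The host of mir-279 and mir-996 was followed in signal by the hosts of mir-8, of mir-4951 and of mir-14. The mir-14 host, CR43651, whose microRNA is known for limiting cell death and fat, had a summit 50 bp upstream of its start with 330.8 in the optimal list, 154.9 in replicate 4 and 175.3 in replicate 1. At CR43857, host of mir-275, 3 summits lay 983 and 306 bp upstream and 632 bp downstream of its start. The strongest of these had 269.5, 145.1 and 129.1 in the same lists and held 2 matches to the SOX core. A separate summit 439 bp before the mir-275 hairpin had 400.8 in the optimal list, 185.5 in replicate 4 and 215.8 in replicate 1, also with 2 matches. The mir-276a host CR46006 had a summit 147 bp upstream of an internal start with 237.2, 138.9 and 95.9. The mir-9a host CR45916, whose microRNA guards sensory organ number, had its nearest summit 32 bp upstream with 108.4, 70.4 and 35.3.

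The other hosts had their strongest summits between 86.8 and 147.7 in the optimal list. At let7C, the shared precursor of mir-let7, mir-100 and mir-125 that is known to be switched on at metamorphosis, the summit lay in an intron 603 bp from the start with a signal of 90.5 in the optimal list, 13.2 in replicate 4 and 88.6 in replicate 1. In replicate 4 that entry ranked 24578 of 30000, against 2680 in replicate 1. The summit at the bantam host CR43334 lay 17 bp from a start and had 100.6, 70.8 and 27.6. A stronger summit, with 503.3 in the optimal list, lay 1037 bp from another start of that RNA and so outside the limit. At the mir-10 host CR42651, between the Hox genes Dfd and Scr, the signal was 101.04 in the optimal list and 64.7 in replicate 1, with no entry in replicate 4. The hosts of mir-281-1 and mir-281-2, mir-375, mir-bft and mir-31b had their strongest summits at 147.7, 102.6, 102.2 and 86.8 in the optimal list. No summit of the 304 lay at the hosts of mir-1, mir-124, mir-184, mir-iab-4, mir-iab-8 or mir-34.

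**Figure D4:**
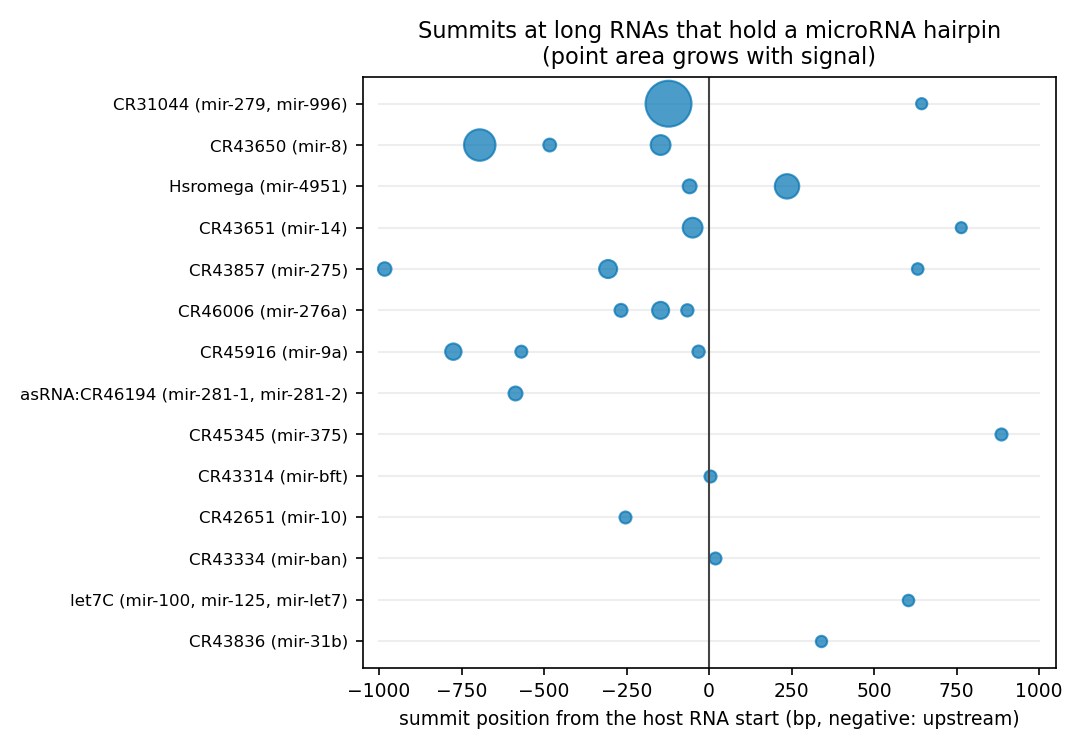
Position of each summit relative to the host RNA's nearest start (horizontal, bp, negative is upstream) for the 14 long RNAs that hold a microRNA hairpin and have such a summit, one row per RNA; the area of a point grows with its optimal signal. The largest points are at CR31044, 123 bp upstream with 1916, and at CR43650, 695 bp upstream with 883.4.

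Among 27 RNAs with a name or described role that the annotation holds as ncRNA, 6 had one of these summits and 8 had any optimal summit, against 9.89 and 17.1% of all 2780 non-coding RNA genes. The list was written by hand and leaves out other named RNAs, among them TS2 and TS3, whose summits had 136.0 and 99.8 in the optimal list, and marge, with 137.4; these were picked after their values were seen. At Hsromega, the heat-inducible RNA that organises nuclear omega speckles, a summit 236 bp from its first start had 519.3 in the optimal list, 253.9 in replicate 4 and 263.1 in replicate 1, and another 199 bp away had 147.2, 52.7 and 79.4. At flam, the piRNA cluster that restrains transposons in somatic cells of the ovary, the summit lay 160 bp upstream with 169.1, 107.3 and 64.1, and it held 1 SOX core match. The RNA component of RNase MRP, which acts in ribosomal RNA processing, had 111.3, 63.9 and 39.4, and yar, an RNA beside yellow that is known from sleep regulation, had 82.0, 24.6 and 49.8. The others were let7C and Vinr. No optimal summit lay within 1 kb of a start of roX1 or roX2, the dosage compensation RNAs, or of bxd, iab8, noe, CRG, acal or cherub.

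RNAs near genes of the ecdysone response, the steroid programme that drives metamorphosis, held 10 of the 304 summits (3.29%), against 3.09% of the 3781 summits with no start within 1 kb. In this and the following lists a summit inside a gene counts for its host, and one between genes for the gene on each side. Inside a coding gene lay 32.6% of the 304 and 68.9% of the summits with no start. The shares set against each other for each list are therefore not like for like. CR46322 in Hr3, an ecdysone-induced nuclear receptor gene, had 582.8 in the optimal list, 338.6 in replicate 4 and 258.8 in replicate 1. The genes CG12912 and CG46321 also span that summit. A second summit of CR46322, also counted for Hr3, had 80.3 in the optimal list. CR45730, opposite to the bZIP gene vri, had 490.5, 248.7 and 245.5, and CR44742 beside vri had 255.0, 103.5 and 155.3. Inside Smr, a corepressor gene, CR43963 had 259.7, 108.5 and 150.5. The summits of CR45820 in Eip63E, CR45922 in Eip75B, CR32218 in Mi-2 and CR44773 near Kr-h1 had optimal signals of 181.7, 145.5, 88.1 and 80.5. Close to hid was CR45234, given above.

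For genes of EGFR signalling the count was 10 (3.29%, against 1.93%), including sty and both RNAs in Raf. CR33218 in Raf had 234.7 in the optimal list, 115.4 in replicate 4 and 111.9 in replicate 1, CR45290 near the ETS repressor gene aop had 304.8, 167.8 and 139.1, and CR46090 in the ETS activator gene pnt had 202.1, 137.3 and 77.5. CR44971 near kek1, an EGFR inhibitor gene, had 3 summits from 111.5 to 179.8, and mir-2b-2 in the ligand gene spi had 94.1. For Notch the count was 8 (2.63%, against 1.27%): 3 beside the glycosyltransferase gene fng, 2 beside the ubiquitin ligase gene mib1, and 1 each beside the ligand genes Ser and Delta and in the coactivator gene mam. Only the 1 in mam lay inside its gene. The 2 beside mib1 lay 9651 and 7453 bp from it and 2017 and 4215 bp from Notum, and also count for Wnt below. The strongest was CR45243 near fng, with 330.6, 138.4 and 198.2, and its second summit had 194.8 in the optimal list. CR43949, CR34006, mir-4978, CR43950 and CR43929 had optimal signals of 172.6, 143.1, 135.5, 114.6 and 78.7, and CR43258 near Delta had 85.5 with an entry in replicate 4 alone. For Hippo it was 7 (2.30%, against 1.402%), led by CR43717 in ex (395.2, 203.3 and 190.7) and CR45808 in the kinase gene Hipk (389.3, 167.2 and 221.1), then CR43951 in Diap1 (272.6), CR46249 in Hipk (186.5), CR44420 and CR44421 near fj (171.2 and 153.5) and CR44974 in CycE (87.3). A few RNAs give each count, and neighbouring summits share a gene. Some of the genes named were far away. The strongest summit at CR44971 lay 18620 bp from kek1, and that of CR34006 lay 23358 bp from Ser. The CR45290 summit lay 10452 bp from aop and 708 bp from CG10874. The summits of CR44420 and CR44421 lay 10001 and 20781 bp from fj. Closer was the strongest summit of CR45243, 1439 bp from fng.

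Disc patterning genes had 9 (2.96%, against 2.88%), 4 of them in osa: besides the strongest summit, CR46035 had another with 488.6 in the optimal list, 287.9 in replicate 4 and 197.1 in replicate 1, and CR46036 had 1 with 498.6, 165.8 and 337.8 and 1 with 116.1, 62.3 and 44.0. The others lay at CR43940 in TfAP-2 (181.7), CR43431 between the Iroquois genes caup and mirr (127.3), CR44739 near tup (111.9), CR43905 in jing (111.8) and bsAS, the antisense RNA of the serum response factor gene bs (91.5). The CR43431 summit lay 31536 bp from caup and 40305 bp from mirr, and that of CR44739 lay 20016 bp from tup. Wnt genes had 4 and Dpp and Hedgehog genes 4 (1.32% each, against 1.90 and 2.06%), at CR45399 near the receptor gene fz (196.5), CR45940 in nkd (173.3), CR43949 and CR43950 near Notum, CR44281 in the Hedgehog receptor gene ptc (190.8), CR44893 near the BMP antagonist gene sog (166.7), CR45888 in the glypican gene dlp (129.8) and CR44744 in the BMP receptor gene tkv (86.5). Of these, the CR45399 summit lay 34875 bp from fz and 1196 bp from CG7906, and that of CR44893 lay 8799 bp from sog. Hox genes had 3 (0.987%, against 0.661%), with CR44933 and CR45559 near Antp at 152.8 and 128.0 and CR42651. Antp lay 38450 bp from the CR44933 summit and 2973 bp from that of CR45559. Genes of neural stem cells had 3 (0.987%, against 1.14%), at sisRNA:4, at CR45745 near klu (291.6) and at CR44863 near sna (105.7). Near Sox genes lay 1 of the 304 (0.329%, against 0.212%, or 8 summits, with no start within 1 kb), at mir-308, 2528 bp from Sox15 and 155 bp from RpS23 (192.1 in the optimal list, 76.7 in replicate 4, 108.3 in replicate 1).

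Several RNAs had clusters of summits. In all, 97 of the 304 lay within 1 kb of another of them, 60 RNAs had 2 or more and 10 had 3 or more within reach of a start. CR46352 between plh and the Polycomb and Trithorax cofactor gene corto had 4, all weak, from 76.9 to 130.4 in the optimal list. With 3 each were CR44676, CR43650, CR44331, CR45148 near the E-cadherin gene shg (96.2 to 371.9), CR45754, CR43857, CR46006, CR45916 and CR44971. The strongest summit at CR45148 lay 19909 bp from shg. CR44676 and CR45916 lie beside each other, start to start, and shared the summits at 216.9 and 101.7, so the same summit counts for both.

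The SOX core word ACAAT, searched on both strands within 50 bp, had a share between those of the 2 flanks. It was present at 79 of 304 (26.0%, Wilson interval 21.4 to 31.2%; 24.1% in replicate 4 and 25.9% in replicate 1). In windows of the same size 500 bp to the lower and the higher side the shares were 22.7 and 27.0%. Tiled windows of 101 bp within 1 kb of the same kind of start, coding exons included, held it in 25.9%. The share was 26.3% at coding-start summits, with 25.5 and 24.4% in their flanks. At summits with no start within 1 kb it was 31.4%, with 25.1 and 24.9% in the flanks. The longer word AACAAT, which contains it, was at 11.5% of the summits, 7.24 and 13.2% of the flanks and 10.9% of tiled windows. Of the 20 strongest summits 6 held ACAAT.

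Of the other words, TAACA and TATAAA stood farthest above both flanks at the summits, while ATCGAT and TGANTCA stood only slightly above them. TAACA, the same 5 letters in another order and taken as a comparison, was at 90 of 304 (29.6%, interval 24.8 to 35.0%), against 16.4 and 14.8% in the flanks and 17.3% of tiled windows. It was at 23.8% of coding-start summits and 24.9% of those with no start, also above their flanks. TATAAA, the TATA box word, was at 62 (20.4%, 16.2 to 25.3%), against 13.5 and 11.8% in the flanks, 12.2% of tiled windows and 20.8% of summits with no start. GAGAG, the GAGA factor word, was at 10.5%, against 12.5 and 15.1% in the flanks. ATCGAT was at 2.96%, against 2.63 and 1.64% in the flanks, and TGANTCA at 2.96%, against 1.32 and 2.63%. Matches to different words can overlap. The median GC content was 33.7% at the summits and 42.6% in tiled windows. Within the GC range of the middle of the summits (27.7 to 39.6%), ACAAT was at 26.6% of the summits and 32.1% of tiled windows, TAACA at 33.1 and 23.7%, and TATAAA at 21.3 and 18.1%. A match is a string of letters and not a bound site, and the GC comparison was chosen after the values were seen.

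**Figure D5:**
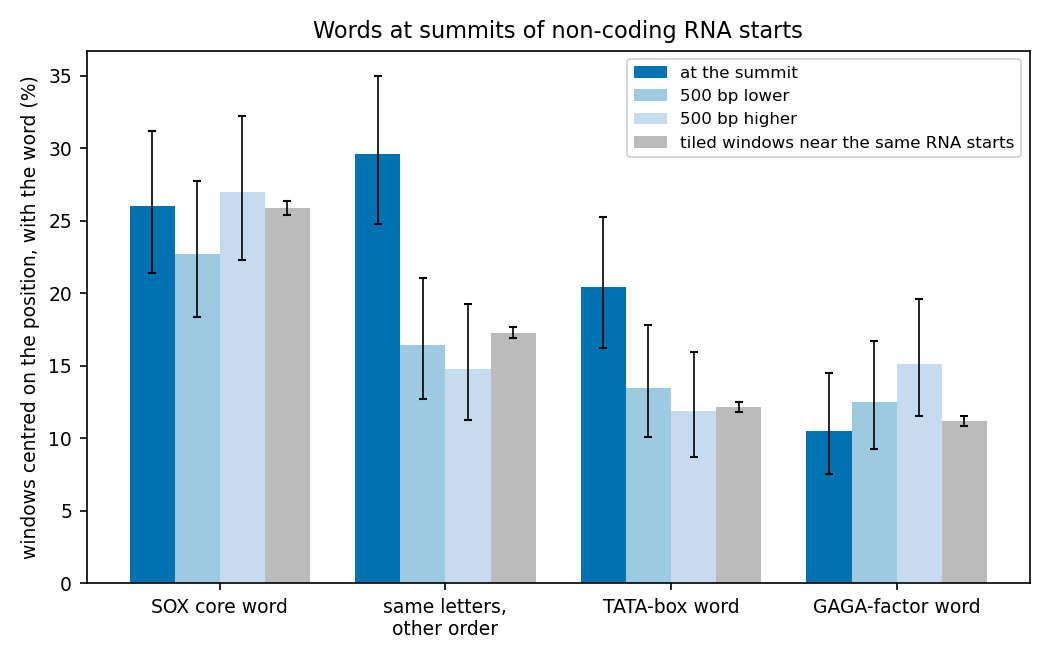
Share of 101 bp windows with each word (vertical, percent) at the summits near non-coding RNA starts, in windows 500 bp to either side and in tiled windows near the same kind of start; error bars are Wilson 95% intervals over windows. The SOX core word stands at 26.0% at the summit, between its flanks at 22.7 and 27.0%, while the same letters in another order stand at 29.6% against 16.4 and 14.8%.

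The word placements are shown for 3 RNAs with named roles and 1 that led its list, on the plus strand of the release 6 assembly with dm6 coordinates, capitals again marking ACAAT or ATTGT.
CR43857, host of mir-275, chr2L:7423464-7423564: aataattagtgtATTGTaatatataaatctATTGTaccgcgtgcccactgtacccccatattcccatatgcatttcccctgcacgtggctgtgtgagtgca
flam, chrX:21631681-21631781: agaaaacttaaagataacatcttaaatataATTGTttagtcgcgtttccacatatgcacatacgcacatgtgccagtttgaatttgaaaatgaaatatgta
Hsromega, chr3R:21296313-21296413: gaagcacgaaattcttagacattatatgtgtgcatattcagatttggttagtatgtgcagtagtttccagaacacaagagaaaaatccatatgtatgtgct
CR45234 near hid, chr3L:18195146-18195246: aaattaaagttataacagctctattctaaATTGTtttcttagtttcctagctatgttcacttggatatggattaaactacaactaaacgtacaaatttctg
The window upstream of the mir-275 host held 2 matches, those of flam and CR45234 held 1 each, and that of Hsromega held none, although its signal was above that of flam in both replicates.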

How the data were processed

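Chromatin immunoprecipitation peaks from 2 biological replicates of 1 group were analysed. The deposited dm6 peak lists were used, with 30000 entries for each replicate and 7055 in the optimal list, and the dm3 lists were not used. The signal value per peak is the authors' own, as deposited. The deposited −log10 q-value was used only to describe its ceiling, which 57.2% of the summits reached. The summit is the deposited offset in bp added to the peak's start, as the authors gave it, and coordinates count from 1. Per the text records deposited beside them, peak calling used alignments together with a control. Aligner, caller and IDR cut-off are not stated in the labels or files read here. The lists hold no read counts, so depth is unknown and intervals (Wilson, 95%) cover counting over summits or RNAs only.

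Starts came from Ensembl release 115 on BDGP6.54, every transcript start counted, on arms 2L, 2R, 3L, 3R, 4 and X without transposable elements. RNAs are matched by identifier, and mature microRNA entries are folded into their hairpins. Replicate entries within 100 bp count as the same summit. Densities use all bases outside coding exons. Words were searched in 101 bp windows of the RefSeq release 6 sequence. Python 3.11.15, numpy 2.4.6, pandas 2.3.3 and SciPy 1.17.1 were used, and the functions were tested on simulated data.

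With 1 group no test between conditions exists, and summits are not replicates, so values are described. The members, RNA lists and gene lists were chosen with earlier results of these data known; the lists were written from general knowledge of the pathways, and their symbols were then matched to the annotation. After a first run some genes were also dropped from lists where they had been misplaced, so the list counts follow that edit. A summit counts for a gene that holds it or, if none does, for the nearest gene on each side, whatever the distance. The RNAs named are those at the 20 strongest and 3 weakest summits, at the 3 highest and 3 lowest replicate ratios, at the limits of the rule, on the list of known RNAs, with 3 or more summits and in or beside a listed gene. The hosts of microRNAs, the summit at mir-275 and the one on arm 4 fall outside that rule and were chosen after their values were seen. Alternatives covered each replicate alone, the 3527 strongest optimal summits, the windows, the starts, the words and the distance that counts as shared.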

Additional observations from a re-analysis of the deposited data

How the results depend on the processing

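The number of summits and their median distance, side and word shares kept close to the reported values under most settings. With each replicate's strongest 7055 entries alone the count ran from 293 to 311 and the density ratio from 2.18 to 2.23, and microRNA hosts with a summit numbered 12 to 13. The 3527 strongest optimal summits alone gave 156 summits, 157 RNA genes, a median signal of 233.4, a density ratio of 2.38 and 8 microRNA hosts, by construction fewer and stronger. A window of 500 bp gave 199 summits, a share of 2.82% and a median distance of 212 bp, and 2 kb gave a share of 5.34%, as the window sets. Taking only each gene's own 5′ end gave a share of 4.72%. ACAAT within 100 bp of the summit was at 44.4%, in a wider window, and AACAAT at 11.5%. Counting all bases gave a density ratio of 2.27, and long and antisense RNAs alone 2.22. The settings for density, for microRNA hosts, for long and antisense RNAs alone, for RefSeq and for close summits were chosen after seeing the data. Replicate entries within 50 bp gave 227 summits in both lists and within 250 bp 302. Leaving out summits with a stronger one within 250 bp left 281, and RefSeq's annotation kept 303. No paired analysis was possible because the 2 samples form 1 group. The lists give no read counts, so how depth limits weak summits such as that of let7C is unknown. No input or untagged signal was used here.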
